A study of Mus musculus with 15 samples.

Results

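The 10 genes described here, endothelial markers together with the apelin receptor and its ligand, were followed in cells sorted from mouse kidney as PDGFra-positive fibroblasts. The genes were Aplnr, Apln, Pecam1, Cdh5, Kdr, Flt1, Tek, Emcn, Eng and Plvap, 10 of the 17097 genes that the arrays measured with a probe set naming a single gene. A probe set is the group of short probes that reports a transcript, and for each gene the probe set with the highest mean over the 15 arrays was used. The set was selected on a measured value, the rise of Aplnr from day 3 to day 7 after folic acid. Aplnr is therefore described without a test wherever the arrays of day 3 or day 7 enter, and the difference of day 7 from day 3 is described without a test for all 10 genes.

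The 15 arrays came from adult C57BL/6 mice in 5 groups of 3. The groups were uninjured kidney (arrays 13 to 15), folic acid-induced acute kidney injury at 3 days (arrays 1 to 3), 7 days (arrays 4 to 6) and 14 days (arrays 7 to 9), and unilateral ureteral obstruction (UUO) at 14 days (arrays 10 to 12). Array numbers are the running numbers of the labels. Folic acid at a high dose injures tubules, whereas a tied ureter blocks urine flow and is a standard model of progressive fibrosis. The labels do not say whether the arrays of a group are separate animals, so the p-values speak of the spread among these arrays, and that spread may be technical. Values are deposited log2 intensities, in which a difference of 1 is a doubling, given as mean ± SD with n = 3 arrays. A gene was called changed at a Benjamini-Hochberg adjusted p under 0.05 in limma's moderated test over 13523 genes.

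Endothelial cells line blood vessels and carry receptors that read growth signals from neighbouring cells. Kdr (VEGFR2) and Flt1 (VEGFR1) bind vascular endothelial growth factors, with Kdr passing on most of the growth signal and Flt1 acting largely as a trap for the ligand. Tek (Tie2) binds angiopoietins and helps keep vessels quiescent, and Eng (endoglin) is a coreceptor for BMP9 and related ligands. Aplnr is the receptor of the peptides Apln and Apela, and is best known from sprouting veins and endothelium. Emcn is a surface mucin of capillary and venous endothelium, Plvap forms the diaphragms of fenestrae such as those of peritubular capillaries, and Pecam1 and Cdh5 (VE-cadherin) hold endothelial cells together. PDGFRa is a mesenchymal receptor, and none of these genes was the marker used for the sort. Which cells made each of them, the sorted fibroblasts or others, was not tested.

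The sorted cells can be checked against their own markers. Pdgfra itself measured 6.01 ± 0.38 in uninjured kidney and 6.69 ± 0.55, 5.50 ± 1.00 and 5.28 ± 1.20 at folic acid days 3, 7 and 14, and 5.99 ± 0.48 in UUO, with no call against uninjured kidney. The mean of 14 fibroblast genes ran from 4.92 to 5.48 in the uninjured arrays and from 7.20 to 9.56 in the injured arrays, and Col1a1, a chain of collagen I, rose from 6.81 ± 0.08 to between 11.17 and 12.23 in the injured groups. Genes of other cell types also differed by group. The mean of 13 proximal tubule genes ran from 8.45 to 9.74 in uninjured arrays, 6.50 to 6.75 at day 3, 5.54 to 8.35 at day 7, 7.25 to 9.22 at day 14 and 5.49 to 6.00 with UUO. The mean of 20 macrophage and dendritic cell genes ran from 5.13 to 5.37 in uninjured arrays, 5.54 to 5.83 at day 3, 7.37 to 8.37 at day 7, 7.07 to 8.40 at day 14 and 5.77 to 6.05 with UUO. Levels of genes of several cell types thus differed by group, and their part in the results on endothelial genes was not tested. In bulk RNA, fewer cells of a type and less RNA per cell cannot be told apart.

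RefSeq promoter windows (GRCm38.p6, 250 bases before to 50 bases after the start, 300 bases in all) were at hand for 6 of the 10 genes, Eng, Emcn, Tek, Kdr, Flt1 and Apln. The 5 below belong to the 5 genes that were called at day 3 after folic acid, where they went opposite ways: Eng and Emcn rose, and Tek, Kdr and Flt1 fell. Each is written 5′ to 3′ on the strand of the gene. Capitals mark the letters AGGAAG or CGGAAG, cores that ETS-family factors can bind, or their reverse complements CTTCCT and CTTCCG. Eng lies at chr2:32646345-32646644 (+), Emcn at chr3:137340828-137341127 (+), Tek at chr4:94739039-94739338 (+), Kdr at chr5:75978406-75978705 (-) and Flt1 at chr5:147725962-147726261 (-).
Eng: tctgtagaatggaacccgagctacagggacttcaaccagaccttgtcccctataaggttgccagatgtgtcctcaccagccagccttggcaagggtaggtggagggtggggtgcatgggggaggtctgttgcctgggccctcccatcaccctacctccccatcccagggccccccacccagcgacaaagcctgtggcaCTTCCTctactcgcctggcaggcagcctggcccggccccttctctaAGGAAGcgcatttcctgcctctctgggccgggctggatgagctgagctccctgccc
Emcn: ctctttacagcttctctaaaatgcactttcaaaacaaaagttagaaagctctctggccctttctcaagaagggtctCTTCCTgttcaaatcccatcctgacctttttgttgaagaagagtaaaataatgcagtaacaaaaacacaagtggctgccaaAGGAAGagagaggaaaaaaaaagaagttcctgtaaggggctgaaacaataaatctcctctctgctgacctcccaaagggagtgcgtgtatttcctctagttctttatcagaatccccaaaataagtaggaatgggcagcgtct
Tek: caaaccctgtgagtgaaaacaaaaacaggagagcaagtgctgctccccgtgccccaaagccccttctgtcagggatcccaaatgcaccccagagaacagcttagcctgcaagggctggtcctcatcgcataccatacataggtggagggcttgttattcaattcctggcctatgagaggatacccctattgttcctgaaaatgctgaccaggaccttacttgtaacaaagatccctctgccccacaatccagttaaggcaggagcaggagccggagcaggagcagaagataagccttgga
Kdr: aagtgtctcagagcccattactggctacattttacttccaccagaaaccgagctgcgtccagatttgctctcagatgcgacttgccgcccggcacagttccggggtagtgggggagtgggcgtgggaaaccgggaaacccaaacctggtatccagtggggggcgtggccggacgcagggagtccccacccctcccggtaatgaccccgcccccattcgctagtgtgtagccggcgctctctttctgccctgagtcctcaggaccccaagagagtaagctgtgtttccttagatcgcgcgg
Flt1: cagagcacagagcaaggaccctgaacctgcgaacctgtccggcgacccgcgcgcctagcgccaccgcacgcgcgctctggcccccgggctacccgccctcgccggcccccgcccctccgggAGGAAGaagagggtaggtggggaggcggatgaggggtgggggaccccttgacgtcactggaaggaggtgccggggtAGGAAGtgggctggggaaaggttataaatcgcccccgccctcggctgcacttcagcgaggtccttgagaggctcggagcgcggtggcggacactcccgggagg
Eng and Emcn, which rose, each held 2 matches, and so did Flt1, which fell, whereas Tek and Kdr held none, so matches did not divide the genes by direction. Apln held 1, so that 4 of the 6 windows had a match, beside 46.5% of 32851 promoter windows of the same length. A match is a run of letters, not a shown binding site, and the absence of one in 300 bases says nothing about the factor.

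At day 3 after folic acid the endothelial genes split. Emcn and Eng rose, each more than 2-fold, while Tek, Kdr and Flt1 fell, and Pecam1, Cdh5 and Plvap passed no threshold. Of the 8 genes tested, 2 were called higher and 3 lower, beside a background of 10.6% of all 13523 genes called higher and 6.39% called lower. At day 7 the test called Eng, higher, and none of the other 7 (background 7.5% higher and 4.19% lower). At day 14 it called none of the 8 genes other than Aplnr, with 1 of them, Kdr, at an unadjusted p under 0.05 (background 4.2% higher and 1.47% lower). Aplnr was called higher, but it entered the test only through arrays in which it is high and gives no support beside that background. In UUO, Tek, Plvap and Kdr were lower, none of the 9 tested was called higher, and the background was 9.07% higher and 7.52% lower. The 4 comparisons share the uninjured arrays, and array 15 was the lowest of the uninjured arrays in Emcn, Eng, Plvap, Tek, Kdr, Flt1, Cdh5 and Pecam1.

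**Figure D1:**
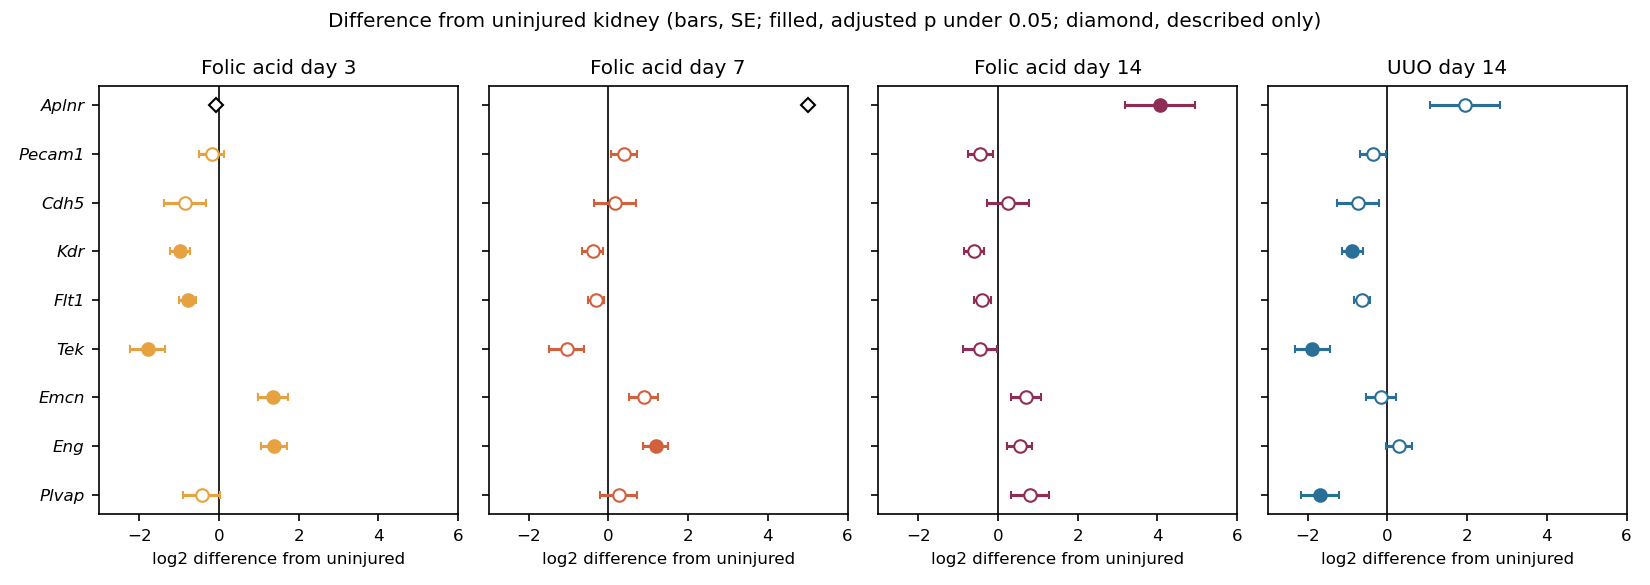
Log2 difference of each injured group from uninjured kidney for Aplnr and the 8 other tested genes, with SE as bars; filled circles have an adjusted p under 0.05, open circles do not, and diamonds are described without a test. At day 3 Emcn and Eng lie to the right of 0 and Tek, Kdr and Flt1 to the left, and in UUO Tek, Plvap and Kdr lie to the left.

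Aplnr had the widest range of the 10 genes, 5.41 log2 units over the 15 arrays. In uninjured kidney it measured 3.43, 3.39 and 3.73 in arrays 13, 14 and 15, and at day 3 it measured 3.31, 3.39 and 3.64 in arrays 1, 2 and 3. Those 6 values lay between percentiles 6.94 and 14.8 of their arrays, among the dimmest probe sets. At day 7 it measured 8.49, 8.72 and 8.31 in arrays 4, 5 and 6, at percentile 94.2 or above in each. Day 7 exceeded day 3 by 5.06 log2 units, and this is the value that chose the gene. Over all genes, 0.695% were called in that comparison, a share from which nothing is read here because the choice of Aplnr used it.

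At day 14 after folic acid Aplnr measured 8.66, 5.70 and 8.37 in arrays 7, 8 and 9. All 3 lay above every uninjured array, and array 8 lay below arrays 7 and 9. The group mean of 7.58 ± 1.63 exceeded the uninjured mean of 3.51 ± 0.18 by 4.07 log2 units (SE 0.88, limma adjusted p = 0.0186). That SE pools the spread of all 5 groups, among them days 3 and 7, with SD 0.17 and 0.21. The p-value is therefore not free of the arrays that chose the gene. No detection call was used, and the uninjured level was not shown to lie above background, so no fold is given. Aplnr passed the filter on dim genes only through 8 arrays (4 to 11), in which it is high, so it had to differ between some groups. Fitted with no filter, over all 17097 genes, the same difference was also called. That fit used the same arrays and the same chosen gene, so it adds no support. With the filter, the call ended when array 7, 9, 13, 14 or 15 was left out, where the difference was 3.52, 3.67, 4.02, 4.00 and 4.17, and it held without array 8.

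In UUO Aplnr spread from the bright to the dim end of the scale, with 7.57, 5.39 and 3.42 in arrays 10, 11 and 12. Array 12 lay within the uninjured range, and array 10 at percentile 90.1. The mean of 5.46 ± 2.08 was 1.95 log2 units above uninjured kidney (SE 0.88, limma adjusted p = 0.159) and was not called. Without array 12 the difference was 2.97 and was called. The UUO arrays then left, 10 and 11, are among those through which Aplnr passed the filter, so that call gives no support. UUO against day 14 of folic acid gave -2.12 (SE 0.88, limma adjusted p = 0.231), with overlapping groups. By group mean the order was day 7, day 14, UUO, uninjured and day 3, and the arrays of every pair of neighbours in that order overlapped.

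The other probe set of Aplnr did not share this pattern. It ran from 4.66 to 5.33 over the 15 arrays, with group means of 5.02 in uninjured kidney, 4.84 at day 3, 5.03 at day 7, 4.90 at day 14 and 4.74 with UUO. With it, day 7 exceeded day 3 by 0.19, day 14 differed from uninjured kidney by -0.12 and UUO by -0.28, and none of the tested differences was called. The rise of Aplnr thus rests on 1 of its 2 probe sets, and which transcripts each reports was not tested.

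**Figure D2:**
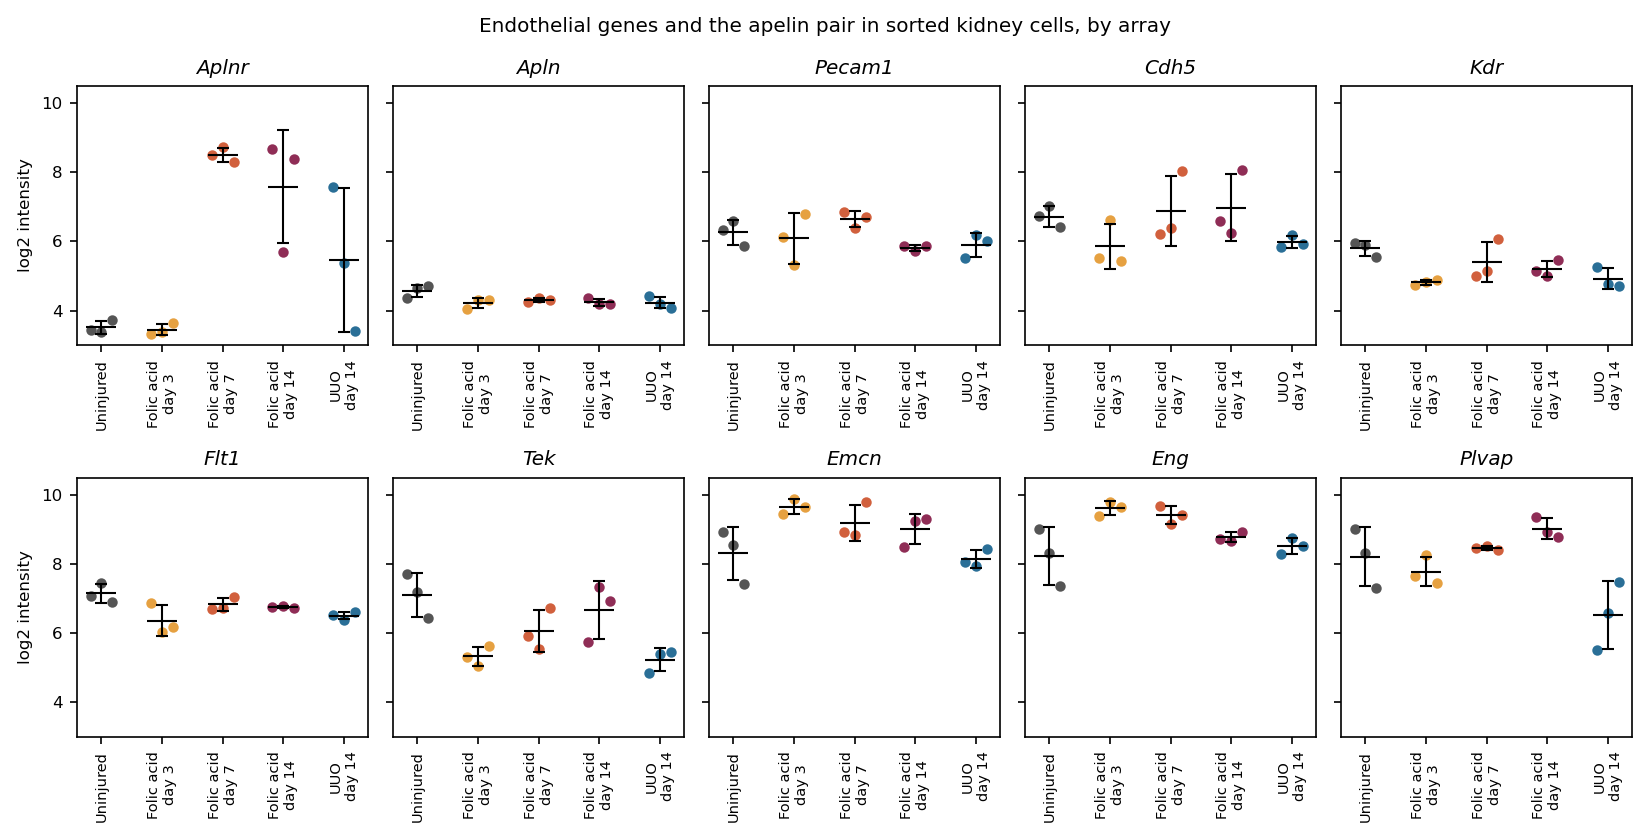
Log2 intensity of the 10 genes in each array (points), by group, with the group mean and SD as lines, n = 3. Aplnr is near 3.5 in uninjured kidney and at day 3, between 8.31 and 8.72 at day 7, and spread in UUO from 3.42 to 7.57, whereas Apln stays between 4.04 and 4.70.

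The peptide ligands of the receptor behaved differently from it. Apln measured 4.57 ± 0.18 in uninjured kidney, 4.21 ± 0.15 at day 3, 4.30 ± 0.05 at day 7, 4.24 ± 0.10 at day 14 and 4.23 ± 0.17 with UUO. It lay between percentiles 25.9 and 41.1 of its arrays and did not pass the filter, so it entered no count. Fitted without the filter, it differed from uninjured kidney by -0.36 at day 3, -0.28 at day 7, -0.34 at day 14 and -0.34 with UUO, with limma adjusted p-values of 0.0708, 0.182, 0.149 and 0.0863. Apela, the second ligand, was brighter and did change. It measured 7.63 ± 0.17 in uninjured kidney and 5.44 ± 0.20 at day 3, where it fell by 2.19 log2 units (SE 0.47, limma adjusted p = 0.00763). It measured 6.17 ± 1.29 at day 7, 7.59 ± 0.40 at day 14 and 5.93 ± 0.34 with UUO, a difference of -1.70 from uninjured kidney (SE 0.47, limma adjusted p = 0.0278). From day 3 to day 14 it rose by 2.16 (SE 0.47, limma adjusted p = 0.0307). Apela is also made by kidney tubule cells. The group means of the 13 proximal tubule genes were 9.01 in uninjured kidney, 6.60, 6.90 and 8.53 at days 3, 7 and 14, and 5.69 in UUO, and their part in the result was not tested.

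By the probe sets used, the VEGF receptors had their highest means in uninjured kidney. Kdr measured 5.96, 5.89 and 5.54 in arrays 13 to 15 and 4.74, 4.83 and 4.89 in arrays 1 to 3 at day 3. The groups did not overlap, and Kdr fell by 0.98 log2 units (SE 0.26, limma adjusted p = 0.0225). At day 7 it measured 5.00, 5.13 and 6.07, with array 6 above the whole uninjured group, and the difference of -0.40 was not called. Without array 6 it was -0.73 and was called. At day 14 it measured 5.13, 5.00 and 5.47, all below the uninjured arrays, with a difference of -0.60 that was not called (limma adjusted p = 0.216). In UUO it measured 5.27, 4.77 and 4.72, a difference of -0.88 (SE 0.26, limma adjusted p = 0.0358). Both calls of Kdr were lost when 1 array was dropped: that of day 3 without array 1, 2, 13 or 14, at -0.94, -0.98, -0.89 and -0.93, and that of UUO without array 11, 12, 13 or 14, at -0.81, -0.78, -0.80 and -0.84.

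Flt1 also fell at day 3. It measured 7.08, 7.43 and 6.91 in the uninjured arrays and 6.87, 6.04 and 6.17 at day 3, where array 1 lay just below array 15. At day 3 it fell by 0.78 log2 units (SE 0.21, limma adjusted p = 0.0211). Day 7, with 6.82 ± 0.18, and day 14, with 6.75 ± 0.03, differed from uninjured kidney by -0.32 and -0.39 and were not called. UUO measured 6.52, 6.39 and 6.59, all below the uninjured arrays, and its difference of -0.64 (SE 0.21) missed the threshold at a limma adjusted p of 0.0523. It passed with quantile normalization (-0.78), with array weights (-0.73) and when only the 6 arrays compared were fitted. The call at day 3 was lost without array 2, 3 or 14, at -0.62, -0.69 and -0.64, and with the mean of the 3 probe sets of Flt1, at -0.46. It was also lost when only the 6 arrays compared were fitted and with a 2-fold minimum, with the difference unchanged at -0.78. The other probe sets were dimmer, with means over the 15 arrays of 4.81 and 5.46 against 6.72 on the log2 scale. They ordered the groups differently. The first was highest at day 14, at 5.16 ± 0.83 against 4.89 ± 0.61 in uninjured kidney. The second was highest at day 7, at 5.80 ± 0.95 against 5.56 ± 0.16. At day 3 both means lay below the uninjured mean, at 4.57 and 5.29.

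Tek had the largest falls of the endothelial receptors. It measured 7.71, 7.18 and 6.44 in uninjured kidney, 5.29, 5.05 and 5.61 at day 3, and 4.83, 5.40 and 5.46 in UUO. Neither injured group overlapped the uninjured arrays. It fell by 1.79 log2 units at day 3 (SE 0.43, limma adjusted p = 0.0140) and differed by -1.88 in UUO (SE 0.43, limma adjusted p = 0.0106). The call in UUO held without each of its 6 arrays in turn, and that at day 3 ended without array 13, at -1.49. Day 7, with 5.91, 5.55 and 6.73, differed by -1.05 and was not called (limma adjusted p = 0.142). Day 14, with 5.73, 7.33 and 6.93, overlapped uninjured kidney and differed by -0.45. UUO differed from day 14 of folic acid by -1.43 (limma adjusted p = 0.0997), which was not called, and without array 7 that difference was -1.90 and was called.

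The ligands and coreceptors of these receptors were read from a list of 17 genes, 16 of them tested. At day 3 it had 2 called higher and 2 lower, with a median log2 difference of -0.09, where the median over all tested genes was 0.02. The share of all genes called higher, 10.6%, is near that of this list, and 6.39% were called lower. Vegfd, a ligand of Kdr's relative Flt4 in mice, was 2.45 log2 units higher at day 3 (SE 0.28, limma adjusted p = 0.000116), at 9.33 ± 0.34 against 6.88 ± 0.23. By day 14 it was back at 6.88 ± 0.37, a difference of -2.45 from day 3 (SE 0.28, limma adjusted p = 0.000895). Vegfc, the other ligand of Flt4, was lower at day 3 (-0.54) and in UUO (-0.61). Smad7, an inhibitor of TGF-beta family signalling, was 0.79 higher at day 3 (limma adjusted p = 0.0475). At day 7 Bmp10 and Gdf2, ligands of the endoglin receptor complex, were called lower (-0.44 and -0.53) and none higher, beside 4.19% and 7.5% of all genes. Bmp10 was dim, at 4.82 to 4.99 in uninjured kidney and 4.41 to 4.53 at day 7, where array medians ran from 4.93 to 5.06. Its level was not shown to lie above background. At day 14 limma called 0 of the 16 against uninjured kidney, beside 4.2% of all genes called higher and 1.47% lower. There 4 had an unadjusted p under 0.05, and the 2 with the smallest p, Gdf2 and Vegfc, differed by -0.48 and -0.37. In UUO 1 was higher, Smad1, a mediator of BMP signals, by 1.15, and 3 were lower, Vegfc, Apela and Bmp10, the last at -0.38, beside 9.07% of all genes higher and 7.52% lower. Vegfa, the main ligand of Kdr, measured 7.85 ± 0.44 in uninjured kidney and 7.08 ± 0.28, 7.46 ± 0.27, 8.00 ± 0.52 and 8.01 ± 0.15 at days 3, 7, 14 and in UUO.

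Eng and Emcn went the other way from the receptor kinases. Eng measured 9.02, 8.30 and 7.36 in uninjured kidney, a spread of more than 1 log2 unit, against 9.39, 9.80 and 9.65 at day 3 and 9.66, 9.16 and 9.41 at day 7. Every array of day 3 and day 7 lay above the uninjured arrays. Eng was 1.38 log2 units higher at day 3 (SE 0.32, limma adjusted p = 0.0107) and 1.18 higher at day 7 (SE 0.32, limma adjusted p = 0.0316). For day 14 and for UUO the means were 8.77 ± 0.14 and 8.52 ± 0.23, differences of 0.55 and 0.29 that were not called. The call at day 3 held without each array in turn but not when only the 6 arrays compared were fitted. That at day 7 held only without array 13 and was lost without array 4, 5, 6, 14 or 15, at 1.06, 1.31, 1.19, 1.22 and 0.75.

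The second probe set of Eng gave smaller differences, with group means of 8.20, 8.58, 8.33, 8.24 and 7.35 in uninjured kidney, at days 3, 7 and 14 and in UUO. With the mean of its 2 probe sets Eng was 0.88 higher at day 3 and 0.66 higher at day 7, and neither was called. In UUO that mean put Eng at -0.28 from uninjured kidney, the opposite side from the brighter probe set.

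Emcn measured 8.91, 8.56 and 7.43 in uninjured kidney and 9.43, 9.88 and 9.65 at day 3, without overlap. It was 1.35 log2 units higher at day 3 (SE 0.37, limma adjusted p = 0.0256). It measured 8.91, 8.84 and 9.79 in the day 7 arrays and 8.50, 9.24 and 9.30 in those of day 14, where its differences of 0.88 and 0.71 were not called. In UUO it measured 8.14 ± 0.27, a difference of -0.16. The call at day 3 was lost without array 2, 3 or 15, at 1.24, 1.36 and 0.92, and with quantile normalization, at 1.02.

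**Figure D3:**
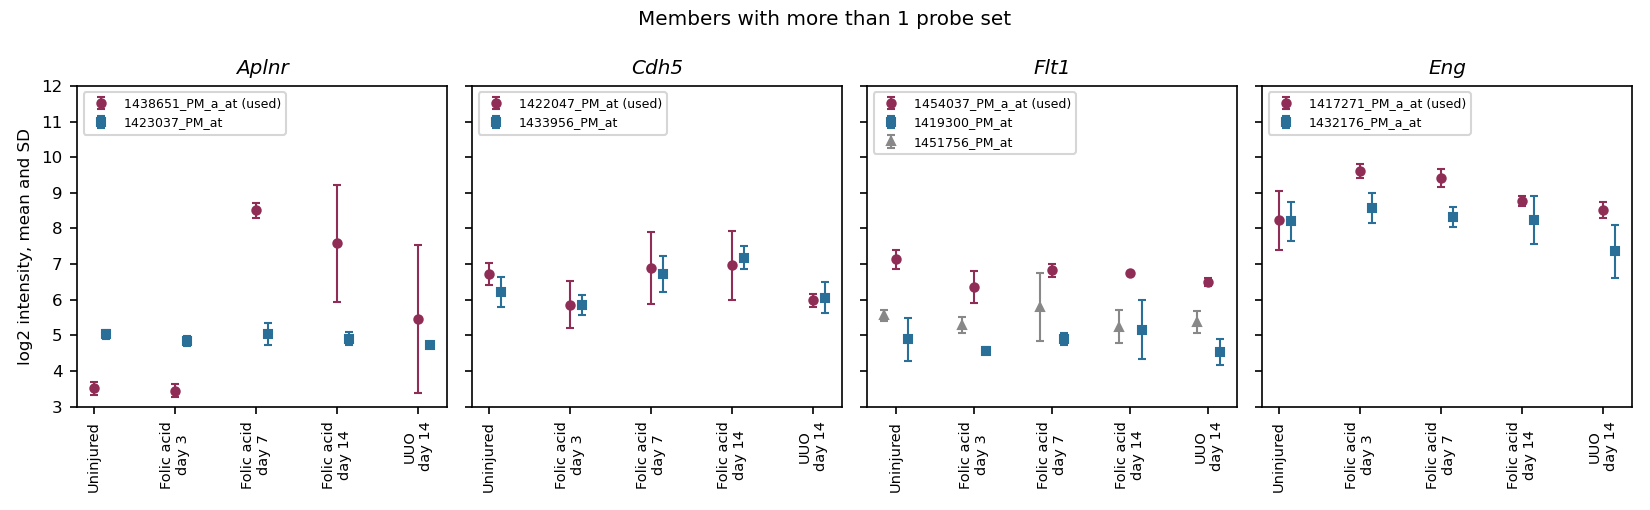
Group mean and SD (n = 3) of every probe set of the 4 genes with more than 1 probe set, in log2 intensity; the set used is marked. For Aplnr the set used runs from 3.45 to 8.51 over the groups and the other from 4.74 to 5.03, for Cdh5 both have their highest mean at day 14, and for Eng the sets part in UUO, at 8.52 and 7.35.

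Plvap separated the 2 models at day 14. It measured 9.36, 8.94 and 8.76 in arrays 7 to 9 of folic acid and 5.51, 6.57 and 7.48 in arrays 10 to 12 of UUO. The groups did not overlap, and UUO differed from folic acid by -2.50 log2 units (SE 0.47, limma adjusted p = 0.0160), 5.66-fold. It was the 1 call among the 9 genes tested between the models, where 1.28% of all genes were called higher and 1.75% lower in UUO. The call was lost without array 7, at -2.33, and without array 11, at -2.53. Arrays 4, 7 and 8 were the injured arrays with the highest proximal tubule genes. Without them the difference was -2.24 and was not called, with a single day 14 array left, which was assumed to vary like the other groups.

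Against uninjured kidney, with 9.00, 8.32 and 7.30, Plvap differed by -1.69 log2 units in UUO (SE 0.47, limma adjusted p = 0.0280), although array 12 of UUO lay above array 15. That call was lost without array 10, 11, 13 or 14, at -1.18, -1.71, -1.29 and -1.63. It measured 7.77 ± 0.43, 8.46 ± 0.06 and 9.02 ± 0.31 at days 3, 7 and 14, differences of -0.43, 0.26 and 0.81 from uninjured kidney that were not called.

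The junction genes were not called in any comparison over all 15 arrays. Pecam1 measured 6.26 ± 0.36 in uninjured kidney, 6.09 ± 0.74 at day 3, 6.65 ± 0.23 at day 7, 5.82 ± 0.08 at day 14 and 5.90 ± 0.34 with UUO. Its differences from uninjured kidney were -0.18, 0.39, -0.45 and -0.36, with limma adjusted p-values from 0.467 to 0.746. Cdh5 measured 6.72 ± 0.30, 5.86 ± 0.66, 6.88 ± 1.01, 6.97 ± 0.97 and 5.98 ± 0.18 in the same order. In this probe set the spread at days 7 and 14 came from 1 array each, array 6 at 8.04 and array 9 at 8.07. The other arrays of those groups lay between 6.20 and 6.60. The second probe set of Cdh5 measured 6.22 ± 0.43, 5.85 ± 0.28, 6.73 ± 0.50, 7.18 ± 0.31 and 6.06 ± 0.43 in the same order. It thus put day 14 further above uninjured kidney and with less spread, and was not tested on its own. With the probe set used, the differences of Cdh5 from uninjured kidney were -0.86, 0.16, 0.25 and -0.73, with SE 0.53 each. That of UUO was called when only the 6 arrays compared were fitted. Pecam1 and Cdh5 share the endothelial lineage with the genes that moved, but whether their differences depart from those of Tek or Eng was not tested.

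Between the folic acid days none of these genes passed the test. For day 14 against day 3 limma called 0 of 8, with 3 at an unadjusted p under 0.05 (Tek, Eng and Plvap), where 1.22% of all genes were called higher and 1.83% lower. Tek was 1.34 log2 units higher at day 14 (limma adjusted p = 0.130), and without array 7 the difference was 1.81 and was called. Plvap was 1.25 higher and Eng differed by -0.84. For day 14 against day 7 limma called 0 of 8, with Pecam1 (-0.84) at an unadjusted p under 0.05, and 0.0518% of all genes were called. Day 7 minus day 3, described without a test, was 1.02 for Cdh5, 0.74 for Tek, 0.69 for Plvap, 0.58 for Kdr, 0.57 for Pecam1, 0.47 for Flt1, -0.20 for Eng and -0.47 for Emcn.

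Other endothelial genes were counted from a list of 38, of which 37 were measured and 30 tested. At day 3, 2 rose and 6 fell, with a median log2 difference of -0.34 beside 0.02 over all tested genes, of which 10.6% rose and 6.39% fell. Clec14a, a surface lectin of endothelium, fell (-1.36), as did Cd34 (-2.22) and Ptprb, the phosphatase that acts on Tek (-1.57), while Ecscr was 2.41 higher (limma adjusted p-values from 0.00214 to 0.00921). At day 7, 4 rose and 1 fell, with a median of 0.06, beside 7.5% and 4.19% of all genes. Icam1, an adhesion molecule that other cells also make, was 2.57 higher, Ecscr 2.69 higher and Cd93 1.76 higher, and Clec14a was lower (-1.01). At day 14 Clec14a was the 1 gene called, at -0.98, beside 1.47% of all genes lower and 4.2% higher, and the median was 0.22. In UUO 3 rose and 4 fell, with a median of -0.26, beside 9.07% and 7.52% of all genes: Clec14a (-1.88) and Sox17, a transcription factor of arterial endothelium (-1.74), were lower, while Calcrl was 2.15 and Icam1 2.00 higher.

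Clec14a was thus lower in all 4 injured groups, at 6.73 ± 0.49 in uninjured kidney and 5.37 ± 0.36, 5.72 ± 0.20, 5.75 ± 0.01 and 4.85 ± 0.18 at days 3, 7, 14 and in UUO. Between the models at day 14, 0 of the 30 were higher and 3 lower in UUO, beside 1.28% and 1.75% of all genes. The median was -0.49 beside -0.01 over all genes. Those lower were Sox17 (-1.75), Cd34 (-2.52) and Cldn5, a tight junction protein (-1.55). From day 3 to day 14, 4 rose and 0 fell, beside 1.22% and 1.83% of all genes, with a median of 0.44 beside -0.01. The 4 were Cd34 by 2.78, Mmrn2 by 2.50, Cldn5 by 1.67 and Adgrl4 by 0.97. For day 14 against day 7 limma called 0 of the 30, with 4 at an unadjusted p under 0.05, beside 0.0518% of all genes called. The 2 with the smallest p, Fli1 (-1.85) and Vwf (0.56), had limma adjusted p-values of 0.240 and 0.454.

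Genes of glomerular and arterial endothelium were counted next. Of 11 tested, 3 rose and 3 fell at day 3, 0 rose and 4 fell at day 7, 0 rose and 1 fell at day 14, and 1 rose and 4 fell in UUO, with medians of -0.03, -0.65, -0.45 and -0.97. Over all tested genes the shares called higher and lower were 10.6% and 6.39%, 7.5% and 4.19%, 4.2% and 1.47%, and 9.07% and 7.52%, with medians between -0.0064 and 0.020. Tbx3, a transcription factor, was lower in all 4, at -1.92, -1.79, -1.62 and -1.31, from 7.83 ± 0.29 in uninjured kidney. Efnb2 (ephrin-B2), a membrane ligand of arterial endothelium, was lower at day 7 (-1.97) and in UUO (-3.11). It was already low at day 3, at 6.45 ± 0.84 against 8.49 ± 0.62 in uninjured kidney and 6.52 ± 0.38 at day 7. Gja5, a connexin of arteries, was lower in UUO (-1.71). The genes that rose at day 3 included Cxcl12 (3.30) and Bmp4 (1.71), which fibroblasts also make, and Cxcl12 was 2.79 higher in UUO. The naming rule stopped at 4 called genes, so not every gene called at day 3 is named. Ehd3 of this list also had its highest group mean at day 3, at 9.90 ± 0.24 against 8.75 ± 0.85 in uninjured kidney.

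Of the tip cell and sprouting genes, 8 were tested, and Igfbp3 was the 1 called. Over all genes 10.6%, 7.5% and 9.07% were called higher at day 3, at day 7 and in UUO. A count of 1 in 8 is near those shares, so nothing is read from it about sprouting genes. Igfbp3 was 2.09 higher at day 3, 2.45 higher at day 7 and 3.89 higher in UUO, and was not called at day 14 (1.33, limma adjusted p = 0.265). Angpt2, a sprouting gene and the antagonist ligand of Tek, measured 7.23 ± 0.37 in uninjured kidney and 6.27 ± 0.33, 6.04 ± 0.71, 6.47 ± 0.58 and 6.20 ± 0.56 at days 3, 7, 14 and in UUO, and was not called. Of 4 lymphatic genes tested, Flt4, the receptor of Vegfc and Vegfd, was lower at day 3 (-1.07, limma adjusted p = 0.0217). Pdpn, which injured fibroblasts and podocytes also carry, was 1.60, 1.67 and 2.64 higher at days 7 and 14 and in UUO. Over all genes 6.39% were called lower at day 3, and 7.5%, 4.2% and 9.07% higher at days 7 and 14 and in UUO. With 4 lymphatic genes tested, nothing is read from these counts.

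The genes most like Aplnr over the 15 arrays were led by genes of antigen presentation. Ranked by Pearson r over 12645 genes, the closest 8 were Cd74 (0.908), H2-Ab1 (0.900), Ly86 (0.897), C1qb (0.885), Spats2l (0.885), Ets2 (0.884), H2-Eb1 (0.881) and Stab1 (0.868). Cd74, H2-Ab1 and H2-Eb1 belong to MHC class II antigen presentation, C1qb and Ly86 are genes of macrophages, and Stab1 is a scavenger receptor of macrophages and some endothelium. The 15 arrays fall into groups that share their injury and their cell mixture, so the r describes likeness and carries no test. To the mean of the 30 tested genes of the wider endothelial list the r was 0.65, and to that of the 20 macrophage and dendritic cell genes it was 0.87. Within the set of 10 the closest was Cdh5, with an r of 0.40 and rank 1408, and each of the others had an r of 0.20 or less.

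Within UUO the order was the reverse of that over all arrays. There the macrophage and dendritic cell genes had a mean of 5.77 in array 10, where Aplnr was 7.57, and of 6.05 in array 12, where Aplnr was 3.42. At day 14 of folic acid the lowest Aplnr, 5.70 in array 8, went with the lowest macrophage mean of that group, 7.07. The part of those cells in the result was not tested.

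**Figure D4:**
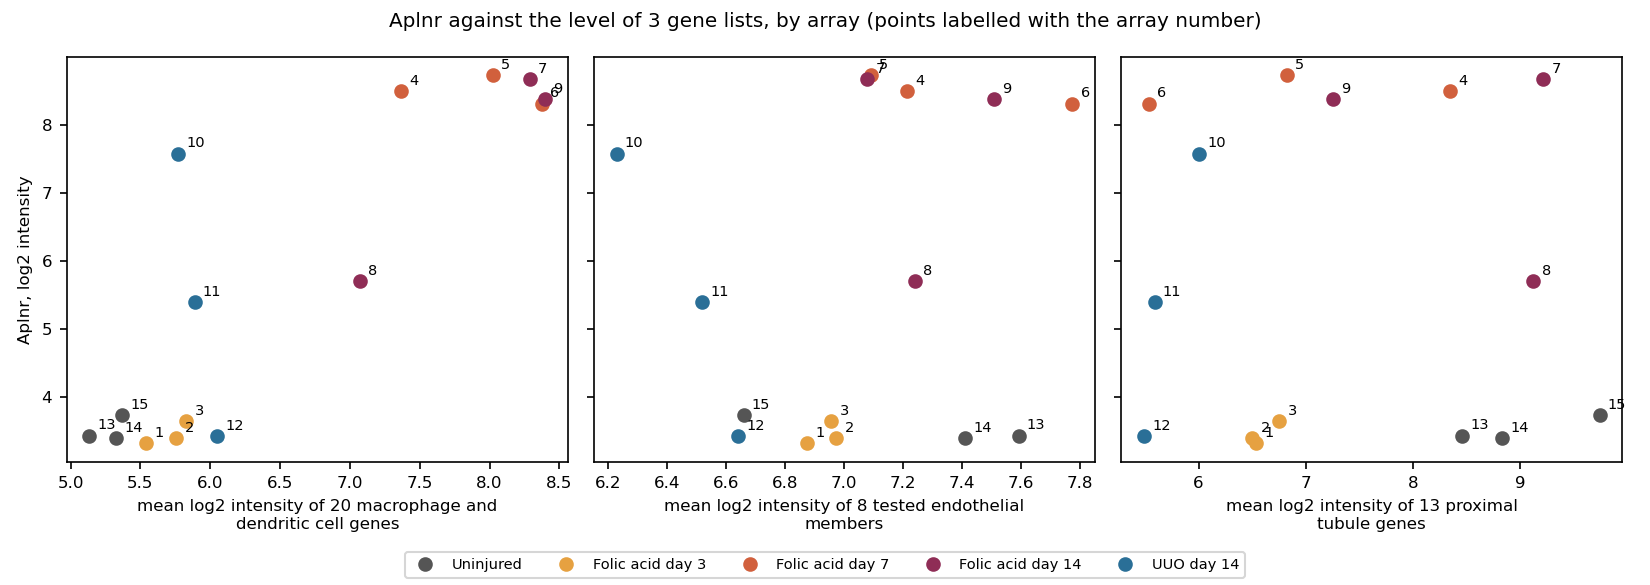
Log2 intensity of Aplnr in each array (number beside the point) against the mean log2 intensity of 20 macrophage and dendritic cell genes, of the 8 other tested endothelial genes and of 13 proximal tubule genes; colours mark the groups. In the first panel arrays 4 to 9 lie to the right, at 7.07 to 8.40, and arrays 10 and 12 of UUO have Aplnr at 7.57 and 3.42 at nearly the same macrophage level.

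The mean of the other 8 tested endothelial genes ran from 6.66 to 7.59 in uninjured arrays, 6.88 to 6.97 at day 3, 7.09 to 7.77 at day 7, 7.08 to 7.51 at day 14 and 6.23 to 6.64 with UUO, so that every UUO array lay below every array of the other groups. The genes most like this mean, over 12637 genes, were Mrc1 (0.921), Ehd4 (0.899), Slco2a1 (0.856), AU021092 (0.793), Myo1d (0.786), Sox17 (0.776), Gja5 (0.776) and Cd53 (0.762). Sox17 and Gja5 are endothelial genes that the mean did not hold. Mrc1, the closest gene, is a receptor of macrophages and of some endothelium and stands in the macrophage and dendritic cell list. The remaining genes, Cd53 among them, stand in none of the marker lists. Which cells made these genes was not tested.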

How the data were processed

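RNA of the sorted cells was amplified and hybridised to 15 arrays, 3 in each of 5 groups. Per the submitters' processing notes, which name RMA, affy and limma, the authors summarised 45141 probe sets as the deposited log2 intensities. They ran from 2.43 to 13.1, with array medians from 4.93 to 5.06, and 0 pairs of arrays were identical. RMA usually brings arrays to a common distribution, which can move genes when overall RNA content changes. The number of arrays limits the precision, and 0 columns of values were left unused.

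The platform annotation named 1 gene for 28898 probe sets, several for 551 and none used here for 15692. Each gene was read from its brightest probe set by mean over all arrays, which gave 17097 genes. Testing required a level above percentile 40 in 3 or more arrays, which 13523 genes met, 9 of the 10 described here among them. Group means were estimated jointly over the 15 arrays in limma 3.58.1 under R 4.3.3, using lmFit and eBayes (2-sided, 10 residual degrees of freedom), with Benjamini-Hochberg adjustment over all tested genes within each of 7 comparisons. The fit was tested on simulated data. Plots were drawn with matplotlib 3.10.9.

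The genes described, 14 marker lists and the naming rule were chosen with earlier results of these data known. The rule named every gene of the set, from each list up to 4 called genes by smallest p (2 where limma called none), and the 8 genes most like Aplnr or most like the mean of the others. Vegfa and Angpt2 were added after their values were seen. Likeness ranked genes without provisional symbols. Array numbers run on through the groups, so they cannot show a pairing, and no pairing was made. Alternatives were leaving out each array, fitting only the 6 arrays of a comparison, quantile normalization or median centring, array weights, a robust variance trend, averaging probe sets, a filter at percentile 60 or none, and other thresholds. Leaving out arrays 4, 7 and 8 together and using the other probe set of Aplnr were added after seeing the data. Promoter windows came from RefSeq (GRCm38.p6).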

Additional observations from a re-analysis of the deposited data

Results flagged for a closer look

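Plvap differed between the 2 injury models at day 14 by -2.50 on the log2 scale, UUO minus folic acid, in limma's test of the difference itself. Against the shared uninjured arrays it differed by -1.69 in UUO and by 0.81 at day 14 of folic acid. The mean of 13 proximal tubule genes was 5.69 in UUO and 8.53 at day 14 of folic acid, and its part in the result was not tested.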

How the results depend on the processing

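Under the 17 alternatives run for every gene, 187 results in all, the 11 called changes kept their direction, and 128 of these results still called them. The other thresholds reused the main fit. A robust variance trend, another filter or none, and fitting only the 6 arrays compared left the difference of group means unchanged. In all those settings the direction could not turn, so its being kept there shows nothing. The other probe set of Aplnr, run for that gene alone, turned its called difference at day 14 from 4.07 to -0.12. Of 816 alternatives for the 48 changes not called, 8 gave a call and 18 turned the sign. Against uninjured kidney limma called 5 genes for day 3, 1 for day 7, 1 for day 14 and 3 for UUO, and it called 1 between the models. The 1 for day 14 is Aplnr, which gives no support because it passed the filter only through arrays in which it is high. At day 3 the count was 3 with only the 6 arrays compared, 3 with the mean of probe sets and 3 with a 2-fold minimum. At day 7 it was 0 with quantile normalization, 0 with array weights, 0 with only the 6 arrays compared, 0 with the mean of probe sets and 0 without arrays 4, 7 and 8. Between the models it was 0 with only the 6 arrays compared and 0 without arrays 4, 7 and 8. At a threshold of 0.01 all 5 counts were 0. Leaving out 1 array gave counts of 2 to 4 for day 3, 0 to 1 for day 7, 0 to 1 for day 14, 1 to 3 for UUO, 0 to 1 between the models, 0 to 1 for day 14 relative to day 3 and 0 for day 14 relative to day 7. The causes were not tested, and fewer arrays leave fewer degrees of freedom.

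Apart from Aplnr at day 14, signs turned for uncalled differences. Plvap at day 7 was -0.018 with quantile normalization and Eng in UUO was -0.28 with the mean of probe sets. The other probe set put Aplnr in UUO at -0.28. With 1 array left out, differences from uninjured kidney ran from -0.54 to 0.20 for Pecam1 at day 3, -0.42 to 0.50 for Cdh5 at day 7, -0.30 to 0.62 for Cdh5 at day 14, -0.78 to 0.022 for Tek at day 14, -0.20 to 0.65 for Plvap at day 7, -0.59 to 0.15 for Emcn in UUO and -0.14 to 0.69 for Eng in UUO. Day 14 minus day 7 ran from -0.46 to 0.67 for Cdh5, -0.34 to 0.13 for Emcn, -0.13 to 0.034 for Flt1 and -0.40 to 0.13 for Kdr. Day 14 minus day 3 ran from -0.65 to 0.092 for Pecam1, and UUO minus day 14 from -0.055 to 0.27 for Pecam1. No paired analysis was made because the labels name no pairs, and array numbers that run on through the groups cannot show any. Without a detection call, low levels such as those of Aplnr in uninjured kidney could not be set against a detection limit.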
